A study of Mus musculus with 6 samples.

Results

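The 10 genes described here encode the machinery of antigen presentation by MHC class II: the class II chains H2-Aa, H2-Ab1 and H2-Eb1, the invariant chain Cd74, the peptide-exchange chains H2-DMa, H2-DMb1 and H2-DMb2, the H2-O chain H2-Oa, the transactivator Ciita and the costimulatory ligand Cd86. They were taken by symbol from the 43274 genes of the expression table, and all 10 were found. Their RNA was measured in hair follicle bulge SCs of control and ILK-K5 mice. In the 3 ILK-K5 libraries 9 of the 10 genes lay above every control library, as did 10.9% of all genes tested. The 10 genes were chosen with this comparison known, so the count is a description. Their summed level ran from 25796 to 39320 normalized counts in ILK-K5 against 98.4 to 818 in the 3 control libraries. H2-Oa was at no more than 2 reads in any of the 6 libraries.

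The controls were mice with the K5-Cre transgene and a single floxed copy of Ilk (genotype label ILK +/-), and the ILK-K5 mice had this transgene and both copies floxed (ILK -/-), so that Cre was present in both groups. The keratin-5 promoter drives Cre in the basal layer of the epidermis and in hair follicle keratinocytes. The mice were 21 days old, on a mixed C57Bl6-129/Sv background. FACS gated the CD34+ cells with high α6 integrin as bulge SCs. By the paper's methods, total RNA was isolated from them and cDNA was amplified before sequencing. There were 3 libraries per genotype, and the labels do not say which mice went into each, so that all p-values measure the spread between these libraries.

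MHC class II molecules are dimers of an α and a β chain that show peptides from endocytosed proteins to CD4+ T cells. The invariant chain encoded by Cd74 fills the peptide groove of the newly made dimer and guides it to endosomes, where proteases degrade it and H2-DM exchanges the remaining fragment for a peptide. Dendritic cells, macrophages and B cells carry class II constitutively, and interferon-γ can induce it in other cells through Ciita, which sits on promoter-bound RFX, NF-Y and CREB factors and switches on the class II chains, Cd74 and H2-DM together.

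The promoters of class II genes share the short elements through which Ciita acts, and 5 of them are shown so that these elements can be compared between chains. RefSeq promoter windows on GRCm38.p6, from 250 bases before to 50 bases after an annotated start, were found for 6 of the 10 members, namely H2-Aa, H2-Eb1, H2-DMa, H2-DMb1, H2-DMb2 and H2-Oa, and not for H2-Ab1, Cd74, Ciita and Cd86. H2-Ob and H2-Eb2, the remaining class II chains with a window, were added. The letters searched on both strands were GCAAC, the core of the X1 box bound by RFX, and ATTGG, the core of the Y box bound by NF-Y. In the lines below, each of 63 bases, capitals mark GCAAC and ATTGG, or, for H2-DMb2, GATGATG and ATTGG:
H2-Aa (chr17:34287855-34287917, minus strand): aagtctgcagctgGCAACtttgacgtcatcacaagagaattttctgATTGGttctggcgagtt
H2-Eb1 (chr17:34305762-34305824, plus strand): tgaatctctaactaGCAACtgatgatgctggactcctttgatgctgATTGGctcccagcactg
H2-Ob (chr17:34238802-34238864, plus strand): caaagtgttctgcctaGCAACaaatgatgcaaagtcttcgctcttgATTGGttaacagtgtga
H2-Eb2 (chr17:34325529-34325591, plus strand): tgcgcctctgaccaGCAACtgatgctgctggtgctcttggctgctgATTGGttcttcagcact
H2-DMb2 (chr17:34145113-34145175, plus strand): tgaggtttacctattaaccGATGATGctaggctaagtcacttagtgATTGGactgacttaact

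The spacing of both cores was alike in the windows that held the pair. In H2-Aa, H2-Eb1, H2-Oa, H2-Ob and H2-Eb2 GCAAC preceded ATTGG on the same strand with 25 to 28 bases between them, and ATTGG began 48 bases before the annotated start of H2-Aa and 59 bases before that of H2-Eb1. A pair of this kind, with 20 to 36 bases between, was present in 284 of all 32851 windows (0.865%). Each core alone was common, GCAAC in 35.2% and ATTGG in 37.4% of windows. The H2-DMb1 and H2-DMb2 windows held ATTGG but not GCAAC, and had GATGATG with 20 bases between it and ATTGG in both. H2-DMa had 2 windows, for separate annotated starts, of which one held GCAAC alone and the other ATTGG alone. The GATGATG repeat was picked after the sequences were seen. It occurred in 3.48% of all windows and in H2-Eb1 as well, where it follows GCAAC. These matches describe letters, not binding.

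Reads counted on genes numbered from 8228019 to 11969072 per library, so that 1 read was worth 0.726 to 1.52 normalized counts, and mitochondrial genes took 11.5% to 27.6% of reads. Basal keratinocyte markers such as Krt5, Krt14 and Trp63 were present in all libraries and 0 of 6 were called by limma, edgeR or DESeq2 (1 higher at an unadjusted limma p under 0.05), with summed levels of 65953 to 108793 normalized counts in the control and 64545 to 80771 in the ILK-K5 libraries. Of 9 bulge SC markers only Cd34 was called, lower in ILK-K5 (log2 fold change -1.90, SE 0.37, limma adjusted p = 0.0239), a call kept in 2 of 6 fits without 1 library. Ilk itself did not serve as a check of the genotypes. It had 10.6, 16.7 and 38.5 normalized counts in the control and 14.8, 30.9 and 29.2 in the ILK-K5 libraries (log2 fold change 0.30, SE 0.64, limma adjusted p = 0.933), and 89.7% of its annotated exon bases overlap exons of other genes.

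Values below are normalized counts, reads divided by a size factor per library, unless FPKM is named, and fold changes are differences of log2(normalized count + 1), ILK-K5 minus control, which are lowered by the added 1 in genes with few counts and, as differences of mean logs, are raised where 1 control library is far below the others. Because the genes were chosen with this comparison known, their fold changes are given as a description and without p-values.

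The classical class II chains had at most 4 reads each in control library 1 and between 837 and 24720 reads each in the ILK-K5 libraries. H2-Aa (ENSMUSG00000036594, chr17:34282744-34287823, minus strand), the α chain of the A dimer, had 3.86, 54.7 and 119.7 normalized counts in the control and 8878, 6520 and 4525 in the ILK-K5 libraries, a log2 fold change of 7.64 (SE 0.97). Its β partner H2-Ab1 (ENSMUSG00000073421, chr17:34257689-34269419, plus strand) had 0.965, 348.2 and 259.8 normalized counts in the control libraries and 12533.5, 19065.5 and 13547.5 in the ILK-K5 libraries, a log2 fold change of 8.04 (SE 1.62). The lowest ILK-K5 library was far above the highest control library for both chains, and the single H2-Ab1 read of control library 1 set the large error. H2-Eb1 (ENSMUSG00000060586, chr17:34305867-34316674, plus strand), the β chain of the E dimer, had 2.89, 1.52 and 28.3 normalized counts in the control and 1586, 1170.0 and 815.3 in the ILK-K5 libraries (log2 fold change 7.44, SE 0.81).

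**Figure D1:**
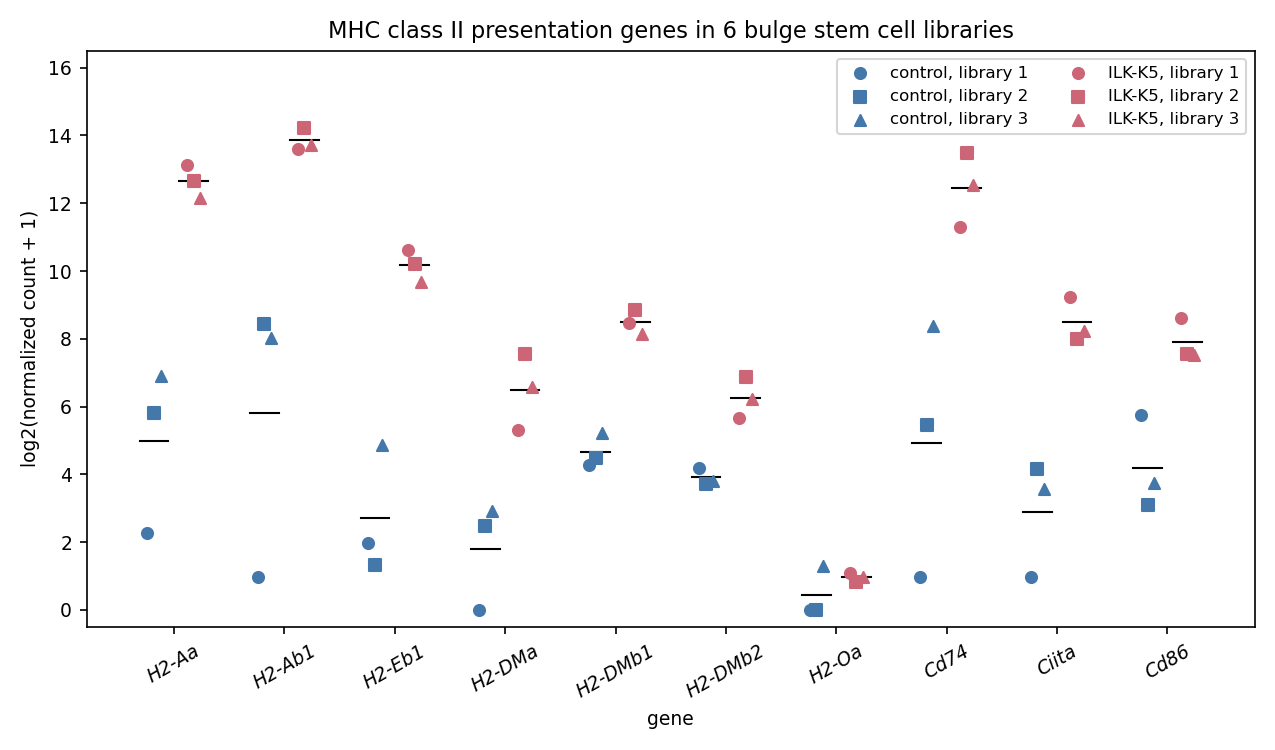
Each of the 10 class II presentation genes on the x axis, with log2(normalized count + 1) on the y axis, for 3 control (blue) and 3 ILK-K5 (red) libraries, where black lines are group means. For every gene except H2-Oa the ILK-K5 libraries sit above all control libraries, and the control libraries spread most for H2-Ab1 and Cd74, from 0.965 to 348.2 and from 0.965 to 329.4 normalized counts.

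Cd74 (ENSMUSG00000024610, chr18:60803848-60812652, plus strand), the chaperone of the dimer, varied more among the ILK-K5 libraries, relative to its mean, than the 3 chains above. Its control levels were 0.965, 42.6 and 329.4 normalized counts and its ILK-K5 levels 2529, 11358 and 5978, a log2 fold change of 7.51 (SE 1.50). The ILK-K5 mean was 6622 ± 4450 (SD, n = 3) and the control mean 124.3 ± 178.8 (SD, n = 3). Per length Cd74 was above H2-Ab1 in control library 3, at 24.0 against 16.3 FPKM, and below it in control library 2 and in every ILK-K5 library. In control library 1 Cd74 had 0.0702 and H2-Ab1 0.0604 FPKM, from 1 read each.

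The chains of the peptide exchanger H2-DM lay below the dimers it edits in ILK-K5, at mean levels of 4.81 to 25.2 FPKM against 103 to 943 FPKM. H2-DMa (ENSMUSG00000037649, chr17:34119541-34139101, plus strand) had 0, 4.56 and 6.53 normalized counts in the control and 38.7, 186.6 and 94.5 in the ILK-K5 libraries (log2 fold change 4.68, SE 0.91). H2-DMb1 (ENSMUSG00000079547, chr17:34153072-34160230, plus strand), a β partner of H2-DMa, had 18.3, 21.3 and 36.3 normalized counts against 352.9, 462.0 and 279.6, a log2 fold change of 3.83 with the smallest error of the set (SE 0.40). Its neighbour H2-DMb2 (ENSMUSG00000037548, chr17:34143307-34151555, plus strand), the other β chain, had 17.4, 12.2 and 13.1 in the control and 50.1, 116.5 and 74.0 in the ILK-K5 libraries (log2 fold change 2.35, SE 0.50). For all 3 H2-DM chains the genotypes did not overlap, and both β chains had counts in every control library. H2-DMb1 and H2-DMb2 are close in sequence, so reads may have been divided between them in a way the sources used here do not state, and 10.4% of the exon bases of H2-DMa overlap Brd2 on the opposite strand.

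H2-Oa (ENSMUSG00000024334, chr17:34092340-34095234, plus strand), a chain of the H2-DM inhibitor H2-O, stood apart from the other members. It had 0, 0 and 2 reads in the control libraries and 1 read in each ILK-K5 library, at or under the floor of 3 reads in both genotypes, so no fold change is given. With no more than 3 reads per library, a difference was not detectable at this depth. H2-Ob, the partner of H2-Oa, is described with the other pathway genes below.

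Ciita (ENSMUSG00000022504, chr16:10480059-10528418, plus strand), the transactivator on which class II transcription depends, had 0.965, 16.7 and 10.9 normalized counts in the control and 602.3, 252.2 and 299.0 in the ILK-K5 libraries (log2 fold change 5.59, SE 0.79). Unlike Cd74, Ciita was highest in ILK-K5 library 1. Cd86 (ENSMUSG00000022901, chr16:36603869-36666081, minus strand), a ligand of CD28 that delivers the second signal to T cells, had 53.1, 7.60 and 12.3 normalized counts in the control and 388.2, 188.2 and 182.2 in the ILK-K5 libraries (log2 fold change 3.70, SE 0.68). The highest control value of Cd86 was in library 1, in which H2-Aa, H2-Ab1, Cd74 and Ciita had their lowest.

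In all, 9 members passed the filter (at least 10 normalized counts on average), and all 9 were called higher, where 479 of the 16368 genes tested (2.93%) were called higher by limma at an adjusted p of at most 0.05. By edgeR and DESeq2 on the recovered reads 8 and 9 members were called higher, where 2.62% and 4.77% of the genes tested were called higher. Calls of lower genes made up 0.599% with limma, 0.525% with edgeR and 1.66% with DESeq2. All ILK-K5 libraries lay above all controls for 10.9% of the genes tested and below them for 6.95%. Nothing is read from these counts, since the members were chosen with this contrast known, and H2-DMa and Ciita passed the filter only through the ILK-K5 libraries. The median log2 fold change of the 9 genes was 5.59, beside a median of 0.0054 over all genes tested. In these bulk libraries more cells that carry class II and more class II RNA per cell cannot be told apart.

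The size of several changes rested on single control libraries. Without control library 1 the log2 fold change was 5.62 for H2-Ab1, 5.53 for Cd74, 6.29 for H2-Aa, 4.62 for Ciita and 3.79 for H2-DMa, and it was 4.47 for Cd86. Leaving out control library 3 instead gave 9.23 for Cd74, 9.14 for H2-Ab1, 8.60 for H2-Aa and 8.52 for H2-Eb1, and leaving out control library 2 gave 9.35 for H2-Ab1, 6.75 for H2-Eb1 and 6.21 for Ciita. H2-DMb1 and H2-DMb2 moved by less than 1.5-fold when any library was left out. The fits of recovered reads gave smaller log2 fold changes for the 4 members with the largest values. They were 6.22 in edgeR and 6.21 in DESeq2 for H2-Ab1, 5.71 and 5.73 for Cd74, 6.78 and 6.80 for H2-Aa, and 6.60 and 6.69 for H2-Eb1, and Cd74 was the member that edgeR did not call. The sample descriptions carry a number that each library shares with the library of the same replicate number in the other genotype, and that ends alike in libraries 2 and 3 of both, without saying what it stands for. In libraries 1 the summed member level was 98.4 normalized counts in the control and 26959 in ILK-K5, and in libraries 2 and 3 it was 509.4 and 818 against 39320 and 25796.

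Per length, as FPKM, the chains of the dimers and Cd74 led the order. In ILK-K5 H2-Ab1 had the highest mean level, 943 ± 220 FPKM (SD, n = 3), followed by Cd74 with 482 ± 324 FPKM, H2-Aa with 363 ± 119 FPKM and H2-Eb1 with 103 ± 33.4 FPKM. These 4 genes held 96.8% to 97.6% of the members' summed FPKM in the ILK-K5 libraries. H2-DMb1 followed with 25.2 ± 6.34 FPKM, then Ciita with 7.50 ± 3.71, Cd86 with 7.08 ± 3.28, H2-DMa with 6.66 ± 4.67, H2-DMb2 with 4.81 ± 2.02 and H2-Oa with 0.0750 ± 0.0144 FPKM.

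Neighbours in this order were not all distinct. The lowest ILK-K5 library of H2-Aa lay above the highest of H2-Eb1, and the same held for H2-Eb1 over H2-DMb1, H2-DMb1 over Ciita and H2-DMb2 over H2-Oa. The ranges of H2-Ab1 and Cd74, Cd74 and H2-Aa, Ciita and Cd86, Cd86 and H2-DMa, and H2-DMa and H2-DMb2 overlapped, although H2-Ab1 was above Cd74 within each ILK-K5 library. Ranked among all genes by mean FPKM, H2-Ab1 was number 51 in ILK-K5 and 3508 in control, Cd74 81 and 4623, and H2-Aa 101 and 8957. In control the H2-Ab1 mean was 12.7 ± 11.3 FPKM and the H2-Aa mean 3.25 ± 3.18 FPKM (SD, n = 3), so that the spread was close to the mean.

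The proportions between members differed among the ILK-K5 libraries themselves. The 10 genes took 0.277%, 0.453% and 0.293% of all reads on genes in ILK-K5 libraries 1 to 3, and 0.000973%, 0.00407% and 0.00942% in control libraries 1 to 3. The FPKM ratio of H2-Ab1 to H2-Aa was 1.62 in ILK-K5 library 1 and 3.35 and 3.43 in libraries 2 and 3, that of Cd74 to H2-Aa was 0.379, 2.32 and 1.76, and that of H2-DMa to H2-DMb1 was 0.0993, 0.366 and 0.306. In each of these ratios ILK-K5 library 1 stood apart from the other two. H2-DMb1 to H2-Ab1 stayed between 0.0227 and 0.0310.

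The same difference between ILK-K5 libraries was set beside the base composition of the transcripts. Over the 16104 tested genes with an annotated transcript, the log2 difference between ILK-K5 library 1 and the mean of libraries 2 and 3 had a Spearman correlation of -0.289 with GC content and of 0.203 with transcript length, a description over genes that share the same libraries. With the genes divided into 5 equal bins by GC content, the median difference was 0.28 in the lowest bin and -0.48 in the highest. Cd86 and H2-Aa, with 43.2% and 46.5% GC, were higher in library 1 by 1.06 and 0.71 on the log2 scale, whereas Cd74 and H2-DMa, with 56.6% and 55.1% GC, differed by -1.70 and -1.75. H2-Ab1, which had the highest GC content of the members at 57.3%, differed by -0.36, and Ciita, with 55.2% GC, was higher in library 1 by 1.13, so that not all members followed this direction. For control library 1 against the mean of control libraries 2 and 3, the Spearman correlation with GC content over the same genes was -0.147. The median of this control difference was 0.11 in the lowest bin and -0.33 in the highest. In the controls H2-Ab1 and Cd74 differed by -7.26 and -5.93. H2-Aa and Cd86, with lower GC content, differed by -4.08 and 2.34. The part of GC content or length in the differences among members was not tested.

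**Figure D2:**
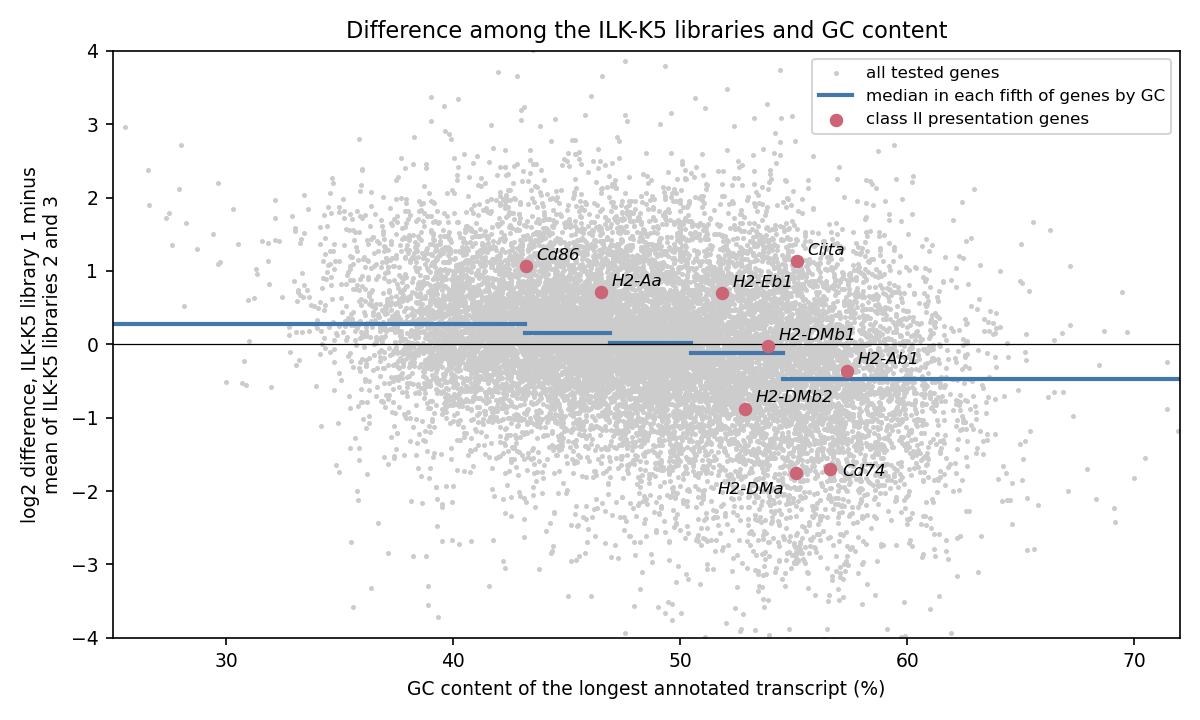
GC content of the longest annotated transcript in percent (x axis) against the log2 difference between ILK-K5 library 1 and the mean of ILK-K5 libraries 2 and 3 (y axis) for all tested genes (grey), with the median in each of 5 bins of genes by GC content (blue lines) and the 9 tested class II presentation genes (red), where a few genes beyond the axes are not drawn. The medians fall from 0.28 to -0.48, Cd74 and H2-DMa lie at -1.70 and -1.75 and Ciita at 1.13.

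The other genes of the class II pathway were taken from a list of roles, of which 43 of 46 symbols were found (the missing ones are H2-Ea and the newer names of March1 and March8). Of 36 that could be tested, 11 were called higher in ILK-K5 by limma, beside 2.93% of all genes tested, 0 were called lower and 25 were not called. edgeR called 11 higher and 0 lower and DESeq2 13 and 0, and at an unadjusted limma p under 0.05 there were 17 higher and 1 lower. The 11 were the transcription factors Irf8 and Spi1, the processing enzymes Ctss, Ctsh, Lgmn and Ifi30, March1 and Cd83, the ligands Cd80 and Cd274, and Cd4. Among them Irf8, Spi1 and Cd80 passed the filter only through the ILK-K5 libraries, with control means of 0.828, 5.73 and 0.965 normalized counts. The count beside the share over all genes is therefore a description. None of the factors that bind the class II promoters was called by limma. The median log2 fold change of all 36 tested pathway genes was 1.29, and that of the promoter-bound factors was 0.078.

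**Figure D3:**
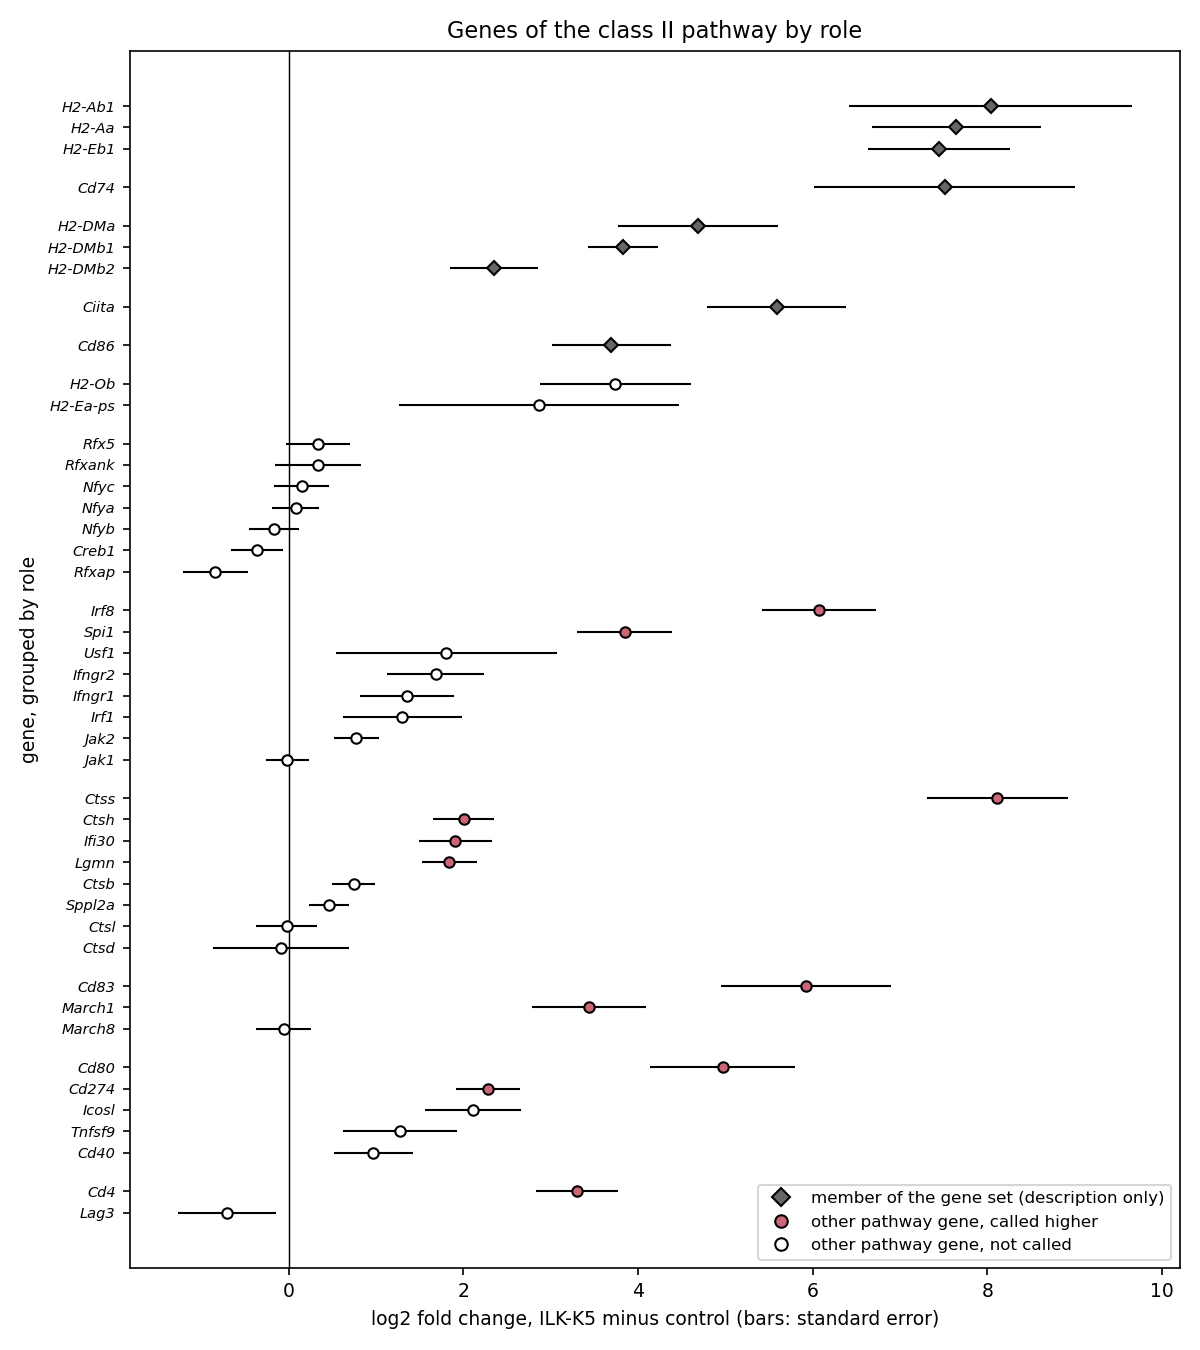
Log2 fold change, ILK-K5 minus control (x axis, bars are standard errors), of the 9 tested class II presentation genes (grey diamonds, a description) and the other tested genes of the pathway reported here, grouped by role (y axis), filled red where called higher by limma. The promoter-bound factors lie around 0, from -0.84 for Rfxap to 0.34 for Rfx5, whereas Ctss at 8.11 and Irf8 at 6.07 lie farthest to the right among the other pathway genes.

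Among endosomal processing genes 4 of 8 were called higher. Ctss, the protease that trims the invariant chain in professional antigen-presenting cells, rose most, from 2.89, 54.7 and 22.5 normalized counts in control to 3439, 6658 and 4700 in ILK-K5 (log2 fold change 8.11, SE 0.81, limma adjusted p = 0.000777). The aminopeptidase Ctsh, the asparaginyl endopeptidase Lgmn and the thiol reductase Ifi30 rose by 2.0 (SE 0.35, limma adjusted p = 0.014), 1.84 (SE 0.31, limma adjusted p = 0.0126) and 1.91 (SE 0.42, limma adjusted p = 0.0419) on the log2 scale. Ctsl, the protease that does the same step in thymic epithelium, had 3733 to 8269 normalized counts in control and 4310 to 5618 in ILK-K5 (log2 fold change -0.02, SE 0.35, limma adjusted p = 0.992), with 26.8% of its exon bases shared with other genes. Ctsb at 0.74, Sppl2a at 0.47 and Ctsd at -0.09 were not called either. The call of Ctsh was lost without ILK-K5 library 2 or 3, that of Lgmn without control library 2 or ILK-K5 library 1 or 2, and that of Ifi30 in 4 of 6 such fits (those lacking control 1 or 2, or ILK-K5 2 or 3).

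The RFX, NF-Y and CREB factors on which Ciita acts were expressed in every library of both genotypes, and 0 of 7 were called by limma, edgeR or DESeq2 (1 lower at an unadjusted limma p under 0.05, Rfxap). Rfx5 had 80.6 to 112.5 normalized counts in control and 94.5 to 157.1 in ILK-K5 (log2 fold change 0.34, SE 0.36, limma adjusted p = 0.84). Rfxap, its partner in the complex, had 181.4, 126.2 and 100.1 in control and 64.9, 91.0 and 66.2 in ILK-K5, lower without overlap but not called (log2 fold change -0.84, SE 0.37, limma adjusted p = 0.404). The others lay between -0.37 for Creb1 and 0.33 for Rfxank. Other genes overlap 26.8% of the exon bases of Rfx5 and 33.8% of those of Rfxank.

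Of the genes that act upstream of Ciita, 2 of 9 tested were called higher, and both encode transcription factors of myeloid cells. Irf8 had 0.965, 1.52 and 0 normalized counts in control and 136.6, 108.0 and 99.4 in ILK-K5 (fitted log2 fold change 6.07, limma adjusted p = 0.00107), at least 35.7-fold higher when the control is set to 3 reads per library. Spi1, which encodes PU.1, had 3.86, 6.08 and 7.26 against 82.0, 140.4 and 71.1 (log2 fold change 3.85, SE 0.54, limma adjusted p = 0.00432), a call lost without ILK-K5 library 2. Genes of interferon-γ signalling were not called by limma, edgeR or DESeq2, although Ifngr1, Ifngr2 and Jak2 were higher in every ILK-K5 library than in any control. Of the 9 genes tested upstream of Ciita, 5 were higher and 0 lower at an unadjusted limma p under 0.05. Ifngr1, Ifngr2 and Jak2 were among these 5. Ifng had no more than 3 reads in any library, and the fold changes were 1.35 (SE 0.54) for Ifngr1, 1.68 (SE 0.55) for Ifngr2, 0.77 (SE 0.26) for Jak2 and 1.30 (SE 0.68) for Irf1 on the log2 scale, with limma adjusted p-values of 0.194 to 0.533. Jak1 at -0.02 and Usf1 at 1.80 were not called. Without control library 1 the values for Ifngr1 and Ifngr2 were 0.70 and 1.05, and without control library 3 they were 1.92 and 2.18 (limma adjusted p = 0.057 and 0.058).

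For control of class II at the surface, the ubiquitin ligase March1 and its opponent Cd83 were called higher and March8 was not. March1 had 35.7, 13.7 and 5.08 normalized counts in control and 230.0, 124.9 and 141.2 in ILK-K5 (log2 fold change 3.43, SE 0.65, limma adjusted p = 0.021), and Cd83 had 0, 10.6 and 20.3 against 470.2, 342.4 and 340.9 (log2 fold change 5.92, SE 0.98, limma adjusted p = 0.0105). March8 had 283.7 to 526.1 normalized counts in control and 323.3 to 472.4 in ILK-K5. Without control library 1 the value was 4.09 for March1 and 4.60 for Cd83, without control library 3 it was 2.79 and 6.80, and without control library 1 or 2 that of Ctss was 7.04 or 8.96. The call of March1 was lost without control library 2 or any 1 ILK-K5 library.

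Among the remaining costimulatory and inhibitory ligands and Cd40, 2 of 5 tested were called higher. Cd80, which shares its receptors with Cd86, had 2.89, 0 and 0 normalized counts in control and 58.1, 32.4 and 59.4 in ILK-K5, at least 15.6-fold higher (fitted log2 fold change 4.97, limma adjusted p = 0.0115). Cd274, the ligand of PD-1, had 62.7, 47.1 and 55.9 against 400.7, 198.2 and 251.3 (log2 fold change 2.29, SE 0.37, limma adjusted p = 0.0091). Pdcd1lg2, the second ligand of PD-1, was at 0 in all control libraries and had 2.28, 17.0 and 29.2 normalized counts in ILK-K5, at least 5.03-fold higher and too low to be tested. The call of Cd80 was lost without any 1 ILK-K5 library and that of Cd274 without ILK-K5 library 3. Cd40, Icosl and Tnfsf9 were not called by limma or edgeR, at limma log2 fold changes of 0.97, 2.11 and 1.27. Icosl, the ligand of ICOS, had 5.79, 10.6 and 10.9 normalized counts in control and 36.4, 49.4 and 39.0 in ILK-K5, without overlap, and was called higher by DESeq2 (adjusted p = 0.0103; limma adjusted p = 0.085).

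On the side of the responding T cell, Cd4 was called higher, with 15.4, 9.12 and 7.98 normalized counts in control and 121.8, 118.0 and 96.4 in ILK-K5 (log2 fold change 3.30, SE 0.47, limma adjusted p = 0.00451). Lag3, the other receptor of class II, had 53.1, 62.3 and 24.7 against 43.3, 22.4 and 18.5 and was not called (log2 fold change -0.71, SE 0.56, limma adjusted p = 0.763). Cd28 and Ctla4, the receptors of Cd86 and Cd80, had too few counts to be tested, with no more than 6.82 normalized counts in any library.

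The class II chains outside the 10 genes gave 0 calls of 2 tested in limma and edgeR and 1 in DESeq2, with 1 at an unadjusted limma p under 0.05. H2-Ob had 2.89, 0 and 3.63 normalized counts in control and 63.8, 22.4 and 27.3 in ILK-K5, without overlap (log2 fold change 3.74, SE 0.87, limma adjusted p = 0.0519). H2-Ea-ps, annotated as a pseudogene of the E α chain, had 0, 0 and 5.08 normalized counts in control and 0, 46.3 and 48.7 in ILK-K5 (log2 fold change 2.86, SE 1.6, limma adjusted p = 0.583). H2-Eb2 had 17.4, 1.52 and 5.08 against 1.14, 1.54 and 4.87 and was not tested. Its promoter window holds the pair of GCAAC and ATTGG, as do those of H2-Aa, H2-Eb1, H2-Oa and H2-Ob. The part of this pair in the levels of these genes was not tested. No H2-Ea-ps read was counted in ILK-K5 library 1, in which H2-Eb1 had its highest value.

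Class I presentation, which interferon-γ also induces, was compared as well. Of 11 class I presentation genes 1 was called higher, H2-K1 with 870.3, 1294 and 2400 normalized counts in control and 5483, 4514 and 4966 in ILK-K5 (log2 fold change 1.83, SE 0.37, limma adjusted p = 0.027, kept in 1 of 6 fits without 1 library), and reads of the class I heavy chains H2-K1 and H2-D1 may be shared. edgeR called 0 of the 11 (H2-K1 at an adjusted p of 0.0536) and DESeq2 2, H2-K1 and B2m, and 8 were higher at an unadjusted limma p under 0.05. The median log2 fold change of the 11 genes was 1.53, and their summed level was 4656 to 11206 normalized counts in control and 19784 to 22633 in ILK-K5. B2m, the light chain of class I, had 3012 to 6405 normalized counts in control and 10133 to 13948 in ILK-K5 (log2 fold change 1.24, SE 0.36, limma adjusted p = 0.123). Nlrc5, the class I counterpart of Ciita, had 53.1, 130.8 and 105.9 against 411.0, 121.9 and 139.3 (log2 fold change 1.07, SE 0.53). Of 8 tested targets of interferon-γ, Cxcl9 and Gbp3 were called higher, with log2 fold changes of 2.07 (SE 0.36, limma adjusted p = 0.0145) and 3.80 (SE 0.60, limma adjusted p = 0.00821), calls kept in 2 and 4 of 6 fits without 1 library. DESeq2 called 5 of the 8 higher, adding the GTPases Gbp2, Gbp4 and Irgm1 with limma log2 fold changes of 2.31, 3.51 and 3.25, edgeR called 2, and 7 were higher at an unadjusted limma p under 0.05.

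Of the cells that carry class II constitutively, macrophages and dendritic cells had markers called higher in ILK-K5. B cells, described below, had none. Of 14 macrophage markers tested 13 were called higher in ILK-K5, Mertk being the exception, and the summed level of the list was 819 to 1251 normalized counts in control and 12799 to 16983 in ILK-K5. Fcgr1 was at 0 in all control libraries. At the floor in all controls were 5 of the tested macrophage markers and 2 of the tested Langerhans and dendritic cell markers. These passed the filter only through the ILK-K5 libraries, so that the counts called are a description. All 6 general leukocyte markers, Ptprc and Cd53 among them, were called higher, with sums of 43.4 to 108.8 against 3080 to 3969. For Langerhans and dendritic cells 3 of 9 tested markers were called higher, Itgax, Mgl2 and Dcstamp, with sums of 88.2 to 123.4 against 1294 to 1998. The other 6 tested, Cd207, Flt3, Zbtb46, Xcr1, Clec9a and Cd209a, were not called by limma. Batf3, Ccr7, Clec10a and Siglech were too low to be tested. In this list edgeR called 3 higher and DESeq2 6, and 7 were higher and 0 lower at an unadjusted limma p under 0.05.

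Markers of B cells, which also carry class II constitutively, and of other lineages were counted in the same way. B cell markers were low in both genotypes, with 0 of 2 tested called by limma, edgeR or DESeq2 and 0 at an unadjusted p under 0.05, and sums of 63.1 to 203.6 normalized counts in control and 66.3 to 120.7 in ILK-K5, Pax5 at 0 in all control libraries and Cd79a at 0 in all ILK-K5 libraries. Of 5 tested T cell markers Cd2 was called higher, in 3 of 6 fits without 1 library, with sums of 162.7 to 192.0 against 313.1 to 397.4. Cd207, the langerin of Langerhans cells, had 7.72, 42.6 and 68.2 against 424.7, 132.7 and 108.1 and was not called (log2 fold change 2.63, SE 0.80, limma adjusted p = 0.148). Of 4 neutrophil and 5 fibroblast markers tested 2 each were called higher, S100a8 and S100a9, and Col3a1 and Dpt, with sums of 31.9 to 50.2 against 226.6 to 297.7 and of 703 to 781 against 1547 to 2525. The neutrophil markers Ly6g and Retnlg were too low to be tested and were at 0 in all ILK-K5 libraries. Of the 6 mast cell markers Cpa3 and Tpsb2 were at 0 in all libraries, and Mcpt4, Cma1 and Fcer1a had at most 2 reads in any. Kit, which melanocytes express as well, made up nearly all of the sums of this list, 0 to 3.04 against 20.1 to 23.4 normalized counts, and was called higher by DESeq2 (adjusted p = 0.0071) but not by limma (adjusted p = 0.0578) or edgeR (adjusted p = 0.071). The melanocyte sums were lower without overlap, 680 to 1308 in control and 269 to 478 in ILK-K5, but Mitf made up most of each sum. The median log2 fold change of the 5 melanocyte markers tested was 0.20. Of 5 melanocyte markers tested Mitf was called lower by limma, edgeR and DESeq2, with 1136, 868 and 596 against 258, 192 and 254 normalized counts (log2 fold change -1.84, SE 0.31, limma adjusted p = 0.0118), and the other 4 were not called by limma or edgeR, Tyrp1 being called higher by DESeq2 (adjusted p = 0.0123). The part of these markers in the levels of the class II genes was not tested.

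**Figure D4:**
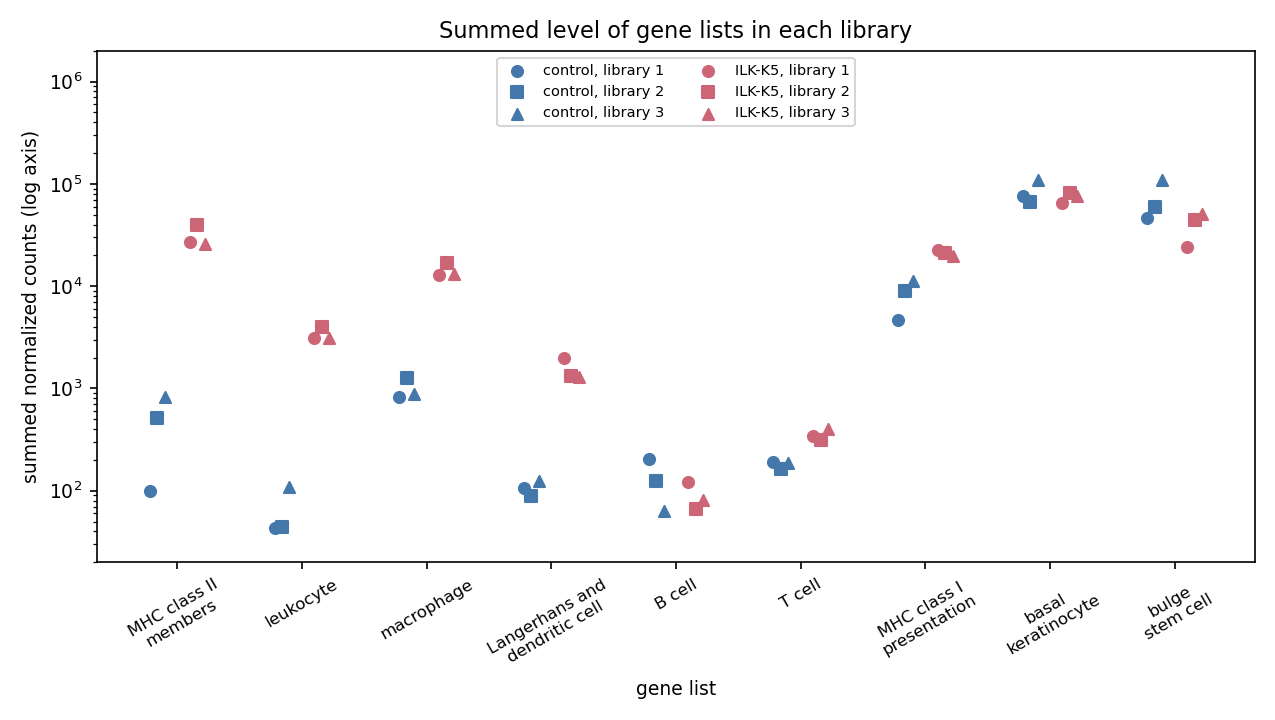
Summed normalized counts (log y axis) of the 10 class II presentation genes and of 8 lists of marker or comparison genes (x axis) in 3 control (blue) and 3 ILK-K5 (red) libraries, 1 point per library. The class II sums lie higher in all ILK-K5 libraries, from 25796 against at most 818. The leukocyte, macrophage, Langerhans and dendritic cell, T cell and MHC class I sums also lie higher in all ILK-K5 libraries. The B cell, basal keratinocyte and bulge SC sums overlap between genotypes.

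The class II genes were also set against Ptprc, which encodes CD45 of all leukocytes. The ratio of H2-Ab1 to Ptprc in normalized counts was 8.76, 17.2 and 13.4 in ILK-K5 libraries 1 to 3 and 0.0345, 15.3 and 5.11 in control libraries 1 to 3. For H2-Aa it was 6.20, 5.87 and 4.48 in ILK-K5 and 0.138, 2.40 and 2.36 in control, and for Ciita 0.421, 0.227 and 0.296 against 0.0345, 0.733 and 0.214. For Cd74 it was 1.77, 10.2 and 5.92 in ILK-K5 and 0.0345, 1.87 and 6.49 in control, so that control libraries 2 and 3 lay within the ILK-K5 range. Control library 1 lay below all others in each of these ratios, and control library 2 lay within the ILK-K5 range for H2-Ab1 and above it for Ciita. Against the macrophage receptor gene Csf1r, H2-Ab1 had ratios of 4.56, 7.98 and 7.55 in ILK-K5 and 0.0164, 22.9 and 5.87 in control, with control library 2 above and control library 3 within the ILK-K5 range. The control ratios to Ptprc rest on 29, 15 and 70 Ptprc reads in libraries 1 to 3, and no test was made of any ratio.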

How the data were processed

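RNA-seq of sorted bulge SCs was available for 3 control and 3 ILK-K5 libraries. Per the study's methods and the submitters' processing notes, adapters and ribosomal RNA reads were removed, read pairs were aligned to GRCm38 with TopHat2 2.0.14 and Bowtie2 2.2.4, and size factors came from DESeq2 1.6.3. The tool that counted reads per gene, its use of strand and its treatment of shared reads are not given in the sources used here. The signal values deposited by the authors are normalized counts, reads per gene divided by 1 size factor per library: divided by the step of its library, each value (100%) came out whole within a tolerance of 0.01, so that reads were recovered. The authors also deposited FPKM, which for each gene is proportional to the normalized count. Deposited columns of the authors' own comparison (mean, log2 fold change, its error, Wald statistic and p-values) were not used.

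Symbols, coordinates, exons and GC content came from GENCODE M21 for GRCm38, which named 42107 of 43274 genes (97.3%). Genotypes were compared with limma 3.58.1 (R 4.3.3, trended eBayes) on log2(normalized count + 1), two-sided, for the 16368 genes that averaged 10 or more normalized counts, without a block for the replicate number, and called at a Benjamini-Hochberg adjusted p of at most 0.05. With 3 against 3 libraries an exact permutation test of a single value cannot go below p = 0.1, so none is given. Genes that never exceeded 3 reads in a genotype were taken as at its floor, and their fold change against 3 reads per library is a lower bound. Counting error alone sets this floor. The fit was tested on simulated data.

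The 10 genes, the other gene lists, the tests and the alternatives were chosen with earlier results of these data known. The text names all 10 genes, Ilk, genes of the pathway list, from each other list up to 4 genes of highest mean FPKM in ILK-K5 and markers at 0, and the 5 genes most alike in pattern. A gene of the pathway list that counts among those tested and not called is not reported here. Genes named for a list's calls and exceptions (such as Cd34, Mertk, Itgax, Mgl2, Dcstamp, Cd2, Dpt, Nlrc5 and Gbp3, where the rule did not give them) were picked with their values in view. Alternatives were pseudocounts of 0.1 and 5, no filter, a mean of at least 50, TMM scaling, FPKM, edgeR 4.0.16 (quasi-likelihood) and DESeq2 1.42.0 on recovered reads, a replicate block, a term for or restriction to the label numbers, and leaving out each library. Tables and plots were made in Python 3.11.15 with pandas 2.3.3 and matplotlib 3.10.9.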

Additional observations from a re-analysis of the deposited data

How the results depend on the processing

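Every tested class II member was higher in ILK-K5 under all 17 alternatives, and 143 of 152 recomputed member fold changes moved by less than the spread between replicates. The filter settings, the replicate block and the label term could not move a fold change in this balanced design. H2-Ab1 and Cd74 counted as unmoved in edgeR, at 6.22 and 5.71 against 8.04 and 7.51 in limma, since their spread was wide. The 9 members called became 6 with a pseudocount of 0.1, 7 on FPKM, 8 in edgeR and 9 in DESeq2. They ranged from 4 to 9 when 1 library was left out (4 without control library 2 or ILK-K5 library 2 or 3, and 5 without ILK-K5 library 1), where the fits had fewer samples. The median log2 fold change of 5.59 ranged from 4.62 to 6.21 in the same fits and was 4.37 with only libraries 2 and 3 of each genotype, whose label numbers end alike. The 11 other pathway genes called higher ranged from 5 (without ILK-K5 library 2; 6 without ILK-K5 library 3) to 12 when 1 library was left out, and were 8 with a pseudocount of 0.1, 13 in DESeq2 and 14 with a term for the label number. Of the named pathway genes, Irf8, Ctss, Cd83 and Cd4 were called in all 6 fits without 1 library, Spi1 and Cd274 in 5, Ctsh in 4, Lgmn and Cd80 in 3, and Ifi30 and March1 in 2 (adjusted p of 0.0288 to 0.192 and 0.00431 to 0.103). With a pseudocount of 0.1 the calls of Cd83, Cd80 and Ifi30 were lost (adjusted p = 0.0736, 0.0537 and 0.056), and that of Ifi30 also with a mean of at least 50 (0.0502) and on FPKM (0.0745). No pathway gene was called lower in any fit, and no fold change of a called gene changed sign.

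Over all genes, the 479 called higher and 98 called lower became 780 and 271 in DESeq2 and 846 and 286 with a term for the label number. They ranged from 222 to 559 and from 32 to 98 when 1 library was left out, with 310 and 35 without control library 2, and 268 and 40, 222 and 32, and 245 and 41 without ILK-K5 libraries 1, 2 and 3. The causes of these shifts were not tested. Libraries with the same replicate number also share the number in their descriptions, whose meaning is not given. The paper used littermates as controls, but the labels do not say whether these numbers mark litters. Deviations from the group means correlated at 0.529, 0.0198 and 0.307 for libraries of the same number and at -0.553 to 0.498 for unlike numbers. The libraries were not taken as pairs. With a replicate block 848 genes were called higher and 269 lower, 9 members and 14 pathway genes among the higher ones. H2-Ob, Ifngr2 and Icosl were the gained pathway calls (adjusted p = 0.0149, 0.0297 and 0.0485 with the block, and 0.016, 0.0274 and 0.0287 with the label term). Of the class I genes H2-K1, H2-D1, B2m and Psmb8 had adjusted p-values of 0.0032, 0.0035, 0.0447 and 0.0127 with the block. Depth limits H2-Oa, H2-Eb2, Ifng and Pdcd1lg2, which were not tested.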

Other observations

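The genes whose pattern over the 6 libraries was most like that of the class II chains and Cd74 were Lat2, Krt42, Cd52, Plxnd1 and Stk17b. Likeness was the Pearson r of log2(normalized count + 1) with the mean of the standardized values of H2-Aa, H2-Ab1, H2-Eb1 and Cd74, taken over genes outside the 10 that averaged 50 or more normalized counts. Lat2, an adaptor protein of leukocytes, had 0, 4.56 and 13.8 normalized counts in control and 170.8, 193.6 and 139.3 in ILK-K5 (r = 0.9997). Cd52, a surface glycoprotein of leukocytes, had 0, 6.08 and 10.9 against 248.2, 335.5 and 213.3 (r = 0.9977). Krt42, a keratin, had 0, 6.08 and 21.0 against 327.9, 607.0 and 377.9 (r = 0.9989). Stk17b, a kinase gene, had 80.1, 161.2 and 270.6 against 627.3, 783.6 and 768.5 (r = 0.9955). All 5 had their lowest value in control library 1 and were higher in every ILK-K5 library than in any control, and 216 of 11060 genes compared (1.95%) had an r above 0.95 over these 6 libraries, which fall into the genotypes.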
